A study of Homo sapiens with 12 samples.

Results

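The data described here show the response of scramble control cells to dexamethasone, seen in 6 of the 12 libraries of the series: 3 from cells given dexamethasone and 3 from cells given DMSO, the vehicle. The cells were RPMI 8226, an established line grown from a multiple myeloma, a cancer of plasma cells. All 6 libraries came from cells carrying the scramble control. That control was made for comparison with a CEBPB knockout, whose libraries were not used. The dexamethasone libraries were from cells treated with 10 µM for 2 h and the others from cells treated with DMSO for 2 h. Each assay took 100000 cells and profiled H3K27ac, the acetylated form of histone H3 lysine 27, by CUT&RUN, in which an antibody directs a nuclease to cut out and release the marked chromatin. The libraries were chosen by their labels alone. The labels leave out whether the scramble cells were a clone or a pool and whether libraries of one treatment were grown apart, so p-values measure only the spread between these libraries.

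Dexamethasone is a synthetic glucocorticoid and a standard drug in multiple myeloma. It binds the glucocorticoid receptor (NR3C1), which moves into the nucleus, binds DNA mostly at enhancers away from promoters, and recruits coactivators such as the acetyltransferases EP300 and CREBBP, which acetylate H3K27. Well-known genes induced by the receptor include TSC22D3 (the anti-inflammatory protein GILZ), FKBP5 (an HSP90 co-chaperone that dampens the receptor), PER1 (a repressor of the circadian clock) and ZBTB16 (the transcription factor PLZF).

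The data are lists of broad peaks, 1 per library, with no read counts. Sequencing depth is therefore unknown, and values carry no counting error. The value compared here is the length of DNA covered by peaks, in base pairs (bp), within a region, a promoter or a gene's surroundings. It records how far a mark reached the peak caller's threshold, not how strong it was. The DMSO lists held 51182 ± 5187 peaks (SD, n = 3) and the dexamethasone lists 45237 ± 5310, a difference within the spread of the libraries (exact two-sided permutation p = 0.3, adjusted over 5 measures 0.5; the smallest p this design allows is 0.1). The covered length was 58.9 ± 6.81 Mb with DMSO and 52.7 ± 6.19 Mb with dexamethasone (exact permutation p = 0.3). Bins of 500 bp overlapped by a mean of 0.538 ± 0.0195 (shared bins over all bins) between treatments, against 0.516 ± 0.0193 among DMSO and 0.578 ± 0.0213 among dexamethasone libraries, so the overlap between treatments lay between the overlaps within them. The promoters of 9 of 10 plasma cell markers, among them SDC1, IRF4, PRDM1 and XBP1, carried peaks in all 6 libraries, and that of SLAMF7 in none. At JCHAIN only 147 bp were covered in DMSO library 2 and 137 bp in dexamethasone libraries 1 and 2. By a looser rule, coverage in at least 3 libraries, 12004 of 19974 protein-coding genes had a covered promoter. The summed coverage of the 10 marker promoters was 14.2 to 17.3 kb with DMSO and 14.8 to 17.1 kb with dexamethasone. Promoters of markers of other cells were covered in part: 7 of 16 mature B cell, 6 of 14 T cell, 4 of 15 myeloid and 4 of 14 stromal and epithelial promoters carried peaks in all 6 libraries, among them BLK, CD8A and EPCAM. In each of these lists others carried none in any library, among them the B cell markers MS4A1 and PAX5, the T cell markers CD3D and CD3G, the myeloid markers LYZ and MPO and the stromal markers COL1A2 and DCN.

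The length covered by H3K27ac peaks rose with dexamethasone at the promoters of CXCR4 and BMF and upstream of PER1, and fell inside ADAM23 and PARD3B. Fold enrichment, the peak caller's value for a whole peak, did not follow covered length. In every dexamethasone list it was below every DMSO list at CXCR4 and PER1, and above every DMSO list at ADAM23 and PARD3B. At BMF its groups overlapped. Fold enrichment was not tested between lists. Peaks of the 6 libraries were merged into regions, and 45220 regions with a peak in at least 3 libraries were tested with limma on log2(bp + 200) after quantile normalization. Coverage was higher with dexamethasone at 12 regions (0.0265% of those tested) and lower at 3 (0.00663%) at a Benjamini-Hochberg adjusted p under 0.05, and 2889 regions (6.39%) had an unadjusted p under 0.05. Without DMSO library 1 the count was 62 higher and 11 lower, and without any 1 of the other 5 it was 0, with 2165 to 2737 regions at an unadjusted p under 0.05. The regions of KIAA2013 and SI were called in 0 of these 6 runs. With no normalization the calls were 31 higher and 35 lower, a different balance of directions. With coverage scaled to each library's total, limma called 0, with 3118 regions at an unadjusted p under 0.05.

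**Figure D1:**
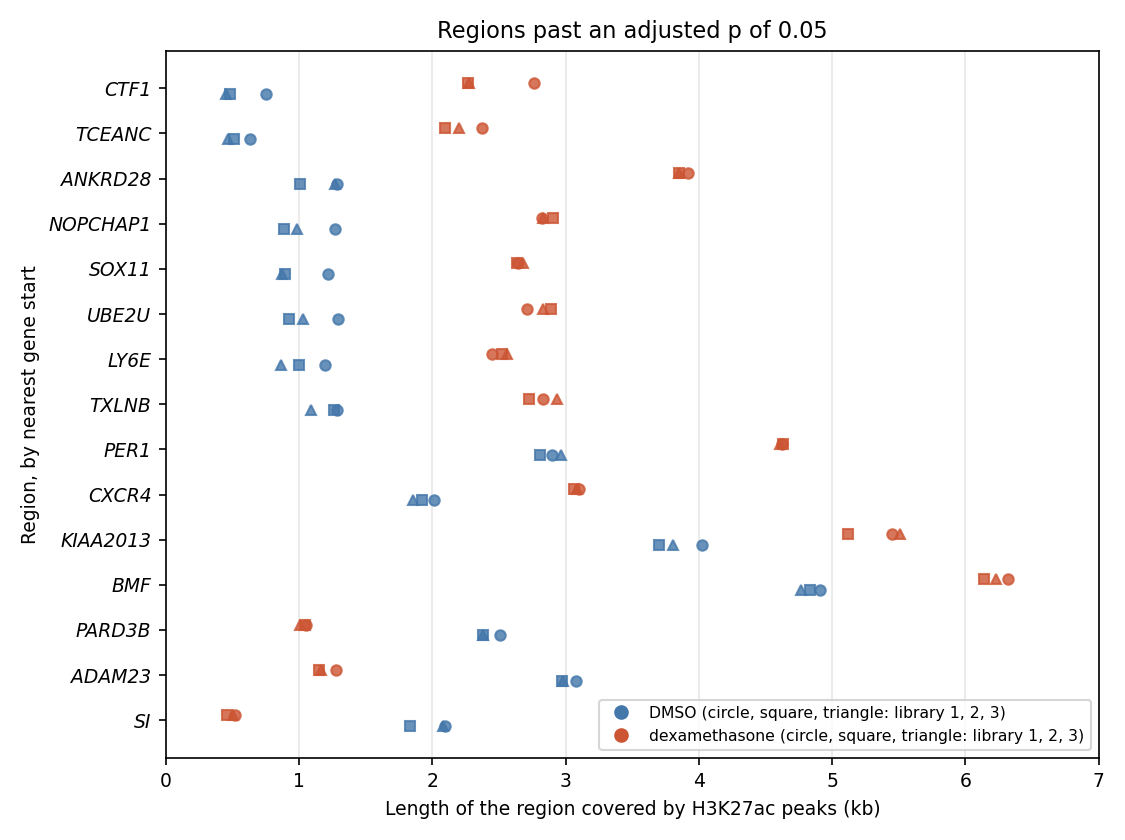
Length covered by H3K27ac peaks (kb, x axis) in each of the 6 libraries at the 15 regions past an adjusted p of 0.05, named by the gene with the nearest start (y axis, ordered by log2 difference). Blue points are DMSO and red points dexamethasone libraries, with a shape for each library number. At each of these regions the 3 red points lie apart from the 3 blue ones, to the right at the 12 higher regions and to the left at PARD3B, ADAM23 and SI.

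CXCR4, the receptor for the chemokine CXCL12 that holds plasma cells in the bone marrow, had a promoter region at chr2:136116285-136119385 (hg38). Its covered length was 2012, 1925 and 1853 bp in the DMSO libraries and 3101, 3062 and 3085 bp in the dexamethasone libraries. Every dexamethasone library was above every DMSO library, and the mark ended farther upstream of the gene in all 3. The log2 difference was 0.66 ± 0.04 (SE; limma adjusted p = 0.0429). The authors' fold enrichment of the peak, a value of the peak caller for the whole peak, was 4.53, 4.92 and 4.81 in the DMSO lists and 3.33, 3.48 and 3.37 in the dexamethasone lists, which put it at percentiles 79.5, 75.5 and 77.8 and percentiles 49.2, 41.7 and 39.9 of their own lists. With only the 50% of peaks of highest enrichment in each list, this peak was left out of the dexamethasone lists by construction, and the test turned to -2.87 for the region (adjusted p = 0.0589) and -1.96 for the promoter (adjusted p = 0.0189). The 250 bases before the upper start of CXCR4, at chr2:136118150-136118399 on the minus strand, are printed below because the edge of the mark moved across them. Peaks covered 164, 140 and 4 of them in the DMSO libraries and all 250 in each dexamethasone library, and capitals mark the 86 bases covered in 3 of 3 dexamethasone and 0 of 3 DMSO libraries.
CXCR4: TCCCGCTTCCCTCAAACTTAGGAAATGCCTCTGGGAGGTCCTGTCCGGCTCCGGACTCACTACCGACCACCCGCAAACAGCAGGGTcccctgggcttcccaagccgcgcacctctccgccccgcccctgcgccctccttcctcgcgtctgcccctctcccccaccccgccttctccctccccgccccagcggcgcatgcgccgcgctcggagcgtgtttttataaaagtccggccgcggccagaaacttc

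PER1 encodes a repressor of the circadian clock and is also a well-known glucocorticoid-induced gene. Its upstream side held a region at chr17:8154251-8158919, 1847 bp from the PER1 start and 228 bp from the neighbouring gene VAMP2, which encodes a protein of vesicle fusion. Coverage there was 2898, 2804 and 2961 bp with DMSO and 4623, 4629 and 4608 bp with dexamethasone. The libraries of each group lay close together and the groups did not overlap (log2 difference 0.67 ± 0.04, limma adjusted p = 0.0429). The added length lay on the side facing PER1. The fold enrichment of the peak was 3.35, 3.55 and 3.36 with DMSO and 2.61, 2.85 and 2.76 with dexamethasone. These were percentiles 57.2, 48.6 and 51.5 and percentiles 9.96, 14.2 and 11.9 of their own lists. The PER1 promoter itself had a log2 difference of 0.03, and the whole gene with 25 kb on either side had 0.14 ± 0.11 (adjusted p = 0.872). When every list was trimmed to the same covered length by leaving out the peaks of lowest enrichment, the sign at the upstream region turned (-0.91, adjusted p = 0.943).

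BMF encodes a BH3-only protein of the BCL2 family that promotes apoptosis. Its promoter region at chr15:40103219-40109555 was covered over 4911, 4833 and 4765 bp with DMSO and 6318, 6139 and 6228 bp with dexamethasone. The groups did not overlap, and the extension was on the side of the gene body (log2 difference 0.37 ± 0.03, adjusted p = 0.0477). A separate region inside BMF had 554, 496 and 733 bp against 1550, 925 and 1199 bp (0.93 ± 0.21, adjusted p = 0.301), which did not pass the test. At BCL2L11, which encodes the related protein BIM and is in the list of glucocorticoid-induced genes, a region inside the gene had the opposite direction, with 4250, 3753 and 2367 bp against 1249, 1187 and 1243 bp. That difference of -1.29 ± 0.20 did not pass (adjusted p = 0.143). Its sign depended on which peaks were kept: with the 50% of peaks of highest enrichment it was 2.71 (adjusted p = 0.0679).

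Coverage also rose at the promoter regions of CTF1, ANKRD28, LY6E and KIAA2013. The promoter region of CTF1, which encodes the cytokine cardiotrophin 1, was covered over 754, 479 and 454 bp with DMSO and 2761, 2265 and 2271 bp with dexamethasone (chr16:30901931-30904691, 1.88 ± 0.12, adjusted p = 0.0429). The promoter region of ANKRD28, a regulatory subunit of protein phosphatase 6, had 1283, 1004 and 1268 bp against 3920, 3852 and 3847 bp (chr3:15794347-15798266, 1.60 ± 0.08, adjusted p = 0.0267). At both, the gap between the groups was larger than the range within either. LY6E, which encodes a surface protein of lymphocytes, had 1191, 995 and 865 bp against 2448, 2525 and 2557 bp at its promoter region (1.21, adjusted p = 0.0498). The promoter region of KIAA2013 had 4021, 3699 and 3805 bp against 5448, 5120 and 5511 bp (0.47, adjusted p = 0.0480). Fold enrichment at the ANKRD28 region was 4.03, 4.29 and 3.95 with DMSO and 3.20, 3.18 and 3.12 with dexamethasone. At LY6E it was 3.78, 4.07 and 4.27 against 3.50, 3.27 and 2.95. The groups overlapped at CTF1, with 3.38, 3.11 and 3.18 against 2.92, 3.56 and 3.57. With the 50% of peaks of highest enrichment the sign turned at ANKRD28 (-2.25), LY6E (-0.82) and NOPCHAP1 (-0.81), none of them passing there.

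Away from promoters, 2 of the 12 higher regions lay inside genes, 3 within 25 kb of a gene and 1 farther. The region inside NOPCHAP1, which encodes a chaperone of nucleolar proteins, had 1271, 884 and 986 bp with DMSO and 2824, 2903 and 2827 bp with dexamethasone. Inside TXLNB the values were 1282, 1258 and 1086 bp against 2833, 2725 and 2937 bp. A region 2053 bp from TCEANC had 627, 514 and 468 bp against 2368, 2092 and 2198 bp (1.81 ± 0.09, adjusted p = 0.0267). All 3 had non-overlapping groups. A region near UBE2U had 1294, 920 and 1025 bp against 2706, 2887 and 2830 bp, and one 365673 bp from SOX11, the nearest gene, had 1214, 893 and 871 bp against 2644, 2634 and 2676 bp. Fold enrichment at the SOX11 region was 4.79, 5.11 and 5.00 with DMSO and 4.46, 4.44 and 4.20 with dexamethasone. At the NOPCHAP1, TXLNB, TCEANC and UBE2U regions its groups overlapped.

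The 3 lower regions lay away from promoters. Inside ADAM23, which encodes a cell surface protein of the disintegrin family, coverage was 3074, 2975 and 2981 bp with DMSO and 1274, 1148 and 1166 bp with dexamethasone (chr2:206479926-206483015, -1.16 ± 0.05, adjusted p = 0.0254). Inside PARD3B, a gene of cell polarity, it was 2509, 2376 and 2379 bp against 1053, 1046 and 1006 bp (-1.04, adjusted p = 0.0429). At a region 1515265 bp from the nearest gene, SI, it was 2095, 1830 and 2077 bp against 518, 458 and 504 bp (-1.59, adjusted p = 0.0477). The covered length shrank but did not reach 0 at any of them. Fold enrichment did not fall with it. At ADAM23 it was 3.07, 4.03 and 3.41 against 4.09, 4.36 and 4.40, and 1 peak in each DMSO list stood against 2 with dexamethasone. At PARD3B it was 5.21, 5.65 and 5.76 against 5.98, 5.84 and 6.20. The groups overlapped at SI, with 3.38, 2.95 and 3.47 against 3.93, 3.28 and 3.84. A region 40366 bp from AGPS, with 3179, 2362 and 2832 bp against 344, 0 and 0 bp, and the NCBP3 promoter region, with 2314, 2300 and 2313 bp against 1121, 1156 and 1052 bp, did not pass (adjusted p = 0.0536 for both).

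Around genes known to be induced by glucocorticoids, more had coverage above than below that with DMSO, but no gene passed the test. The members of this list and of the other lists were chosen with earlier results of these data known. Their shares against all genes, regions or bins are therefore descriptions and not independent support. Of 50 such genes, 48 were tested over the gene and 25 kb on either side, on log2(bp + 500): 38 had a log2 difference above 0 and 10 below, with a median of 0.16 against 0.04 over all 16577 genes tested. By limma 0 of the 48 passed the adjusted threshold, which 0.0241% of all genes passed as higher, and 9 had an unadjusted p under 0.05 as higher and 1 as lower, where 6.77% of all genes had one in either direction. The normalised groups did not overlap, with dexamethasone higher, at 15 of the 48, or 31.3%, against 7.57% of all genes, and with dexamethasone lower at 2, against 4.59%. The share with dexamethasone higher was 18.8% (9 of 48, against 5.41% of all genes) with lists of equal covered length, 14.6% (7 of 48, against 2.14%) with no normalization and 13.3% (6 of 45, against 9.04%) with the 50% of peaks of highest enrichment. With no normalization, 28 of the 48 were above 0 against 31.8% of all genes, and with the 50% of peaks of highest enrichment 28 of 45 were, against 62.2% of all genes. Leaving out any 1 library left 35 to 38 of the 48 above 0. Over the 306 tested regions nearest to these genes, 217 had a log2 difference above 0, a sign that 58.4% of all regions had, and 63 (20.6%) had non-overlapping groups with dexamethasone higher, against 7.82% of all regions.

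**Figure D2:**
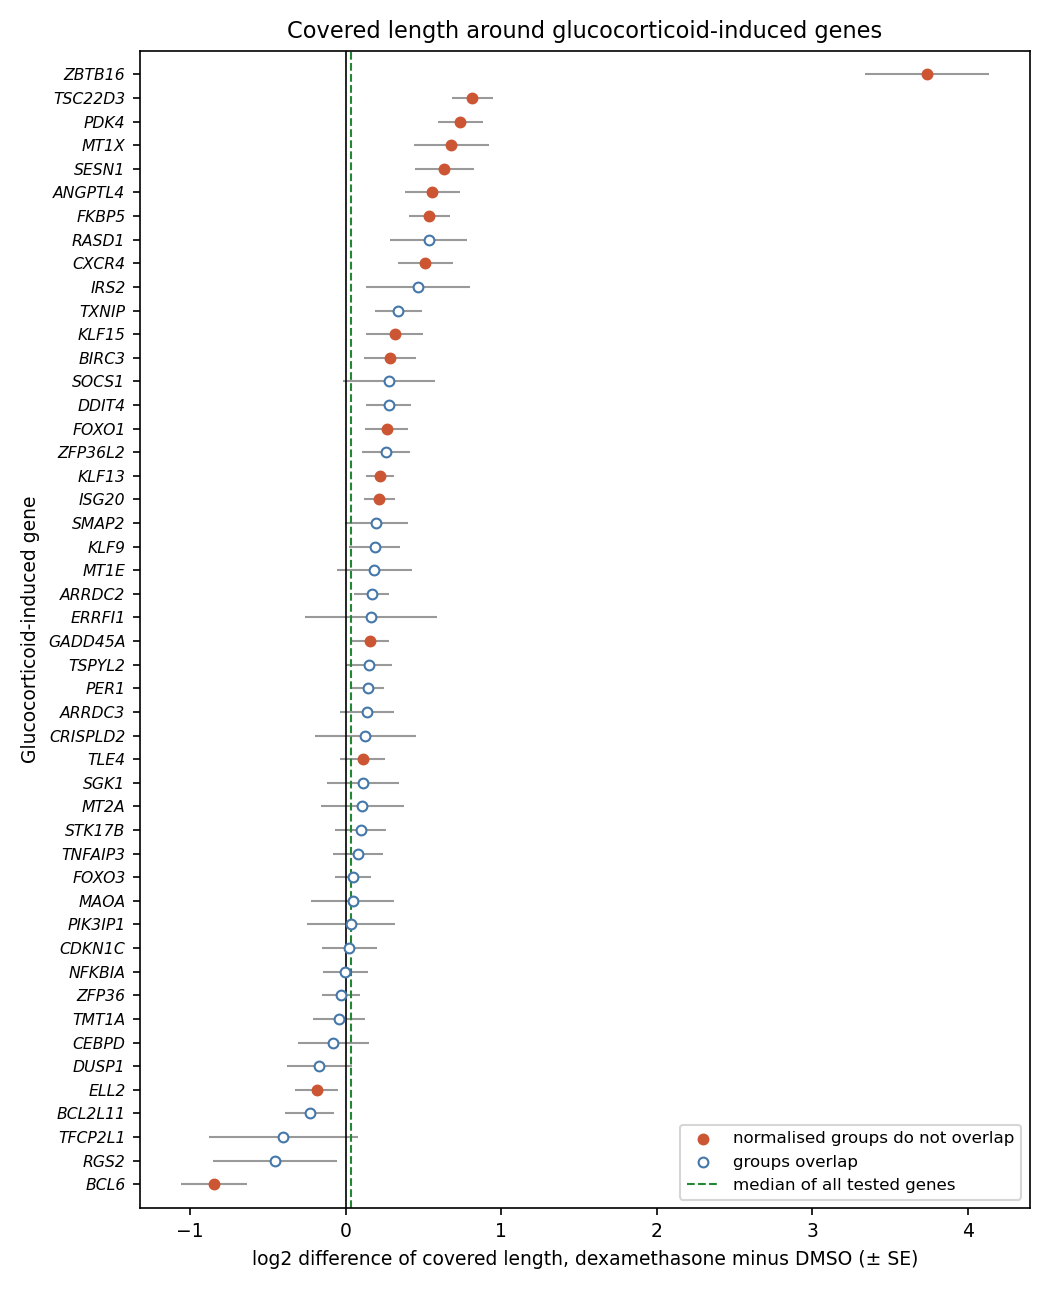
Log2 difference in covered length, dexamethasone minus DMSO, with its standard error (x axis) for the 48 tested glucocorticoid-induced genes (y axis), over each gene and 25 kb on either side. The members of the list were chosen with earlier results of these data known. Filled points mark genes whose normalised groups did not overlap, and the dashed line is the median of all tested genes, 0.04; ZBTB16 stands apart at 3.74, and 38 of 48 genes lie above 0.

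ZBTB16, the transcription factor PLZF, had the largest difference of the list. Its window held 644, 0 and 1295 bp of peaks with DMSO and 14051, 9485 and 12714 bp with dexamethasone. These lengths include the peaks at the neighbouring gene NNMT, which lie past the end of ZBTB16. The DMSO libraries had little or no mark over the gene, and every dexamethasone library had several peaks across it. The log2 difference was 3.74 ± 0.40, and the adjusted p of 0.0559 missed the threshold. The marks were spread through the gene body (chr11:114059711-114256770): a region at chr11:114178667-114180904 had 0 bp in all DMSO libraries and 2017, 1672 and 2073 bp with dexamethasone (adjusted p = 0.0536). A second at chr11:114080087-114081147 had 0 bp in all DMSO libraries against 950, 981 and 1030 bp, and another had 0 bp against 681, 534 and 521 bp. The last had 307, 0 and 0 bp against 981, 1018 and 1076 bp. None of the 4 passed the test, and in each the groups were apart.

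NNMT, which encodes nicotinamide N-methyltransferase, begins just past the end of ZBTB16 and was 1 of the 4 genes called higher in the test of gene surroundings. Coverage was 337, 0 and 0 bp with DMSO and 2093, 2537 and 3234 bp with dexamethasone, with no overlap (log2 difference 2.55 ± 0.24, adjusted p = 0.0485). Most of it was a region beginning 179 bp from the NNMT start. The highest fold enrichment in the window was 2.48 in DMSO library 1 and 2.64, 2.65 and 2.96 in the dexamethasone libraries. These values were low in their own lists, at percentile 11.7 and percentiles 11.0, 7.64 and 21.4. The windows of NNMT and ZBTB16 overlap, and all of the covered length given for NNMT lay in the shared part, past the end of ZBTB16. It was therefore counted for both genes.

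TSC22D3, which encodes GILZ, carried marks in every library. Coverage over the gene and its surroundings was 6458, 7428 and 6811 bp with DMSO and 11952, 11567 and 11060 bp with dexamethasone, a log2 difference of 0.82 ± 0.13 (adjusted p = 0.205). The lowest dexamethasone library was above the highest DMSO library by more than the range of either group. Of 11 tested regions nearest to the gene, 9 had a log2 difference above 0, a sign that 58.4% of all regions had. At 7 of these the normalised groups did not overlap, as at 7.82% of all regions with dexamethasone higher. Non-overlapping groups with dexamethasone lower were found at 1 of the 11, against 4.25% of all regions. On the side past the 3' end, a region at chrX:107690031-107691391 had 0 bp in each DMSO library against 1299, 1361 and 1286 bp (adjusted p = 0.0769), and one at chrX:107700370-107702277 had 898, 662 and 558 bp against 1626, 1908 and 1752 bp (1.20 ± 0.14, adjusted p = 0.0824). Closer to the gene, chrX:107710719-107712344 had 795, 718 and 752 bp against 1421, 1613 and 1167 bp (adjusted p = 0.176). None passed the threshold, and in each the groups were apart.

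At the start of TSC22D3 that lies farthest into the gene, the values were in the other direction. The region at chrX:107716151-107717769 had 1282, 1498 and 1335 bp with DMSO and 986, 894 and 1050 bp with dexamethasone (-0.35 ± 0.12, adjusted p = 0.650). The 250 bases before the start at this promoter, chrX:107716509-107716758 on the minus strand, are printed because peaks covered them with DMSO and hardly with dexamethasone. They were covered in full in all 3 DMSO libraries and over 0, 0 and 39 bases with dexamethasone, and capitals mark the 211 bases covered in 3 of 3 DMSO and 0 of 3 dexamethasone libraries. The region did not pass the test, and with the 50% of peaks of highest enrichment it had a difference above 0 (1.52, adjusted p = 0.822).
TSC22D3: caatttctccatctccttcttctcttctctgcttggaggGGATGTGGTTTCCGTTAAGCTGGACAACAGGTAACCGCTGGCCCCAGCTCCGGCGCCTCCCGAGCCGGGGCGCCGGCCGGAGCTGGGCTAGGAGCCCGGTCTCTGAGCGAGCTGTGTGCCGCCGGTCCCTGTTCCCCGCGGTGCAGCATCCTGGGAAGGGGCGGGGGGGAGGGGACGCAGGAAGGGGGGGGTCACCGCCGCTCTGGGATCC

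FKBP5, the HSP90 co-chaperone, had a peak inside the gene in the dexamethasone libraries only. Its window had 7898, 5697 and 6968 bp with DMSO and 9720, 8469 and 10154 bp with dexamethasone (log2 difference 0.54 ± 0.13, adjusted p = 0.463). The lowest dexamethasone value was above the highest DMSO value, by less than the range within a group. The region of that peak, chr6:35601786-35602933, lies 85982 bp from the nearest listed start and had 0 bp in each DMSO library and 1115, 1116 and 921 bp with dexamethasone (2.67 ± 0.34, adjusted p = 0.0941). The promoter of FKBP5 had a log2 difference of 0.05.

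**Figure D3:**
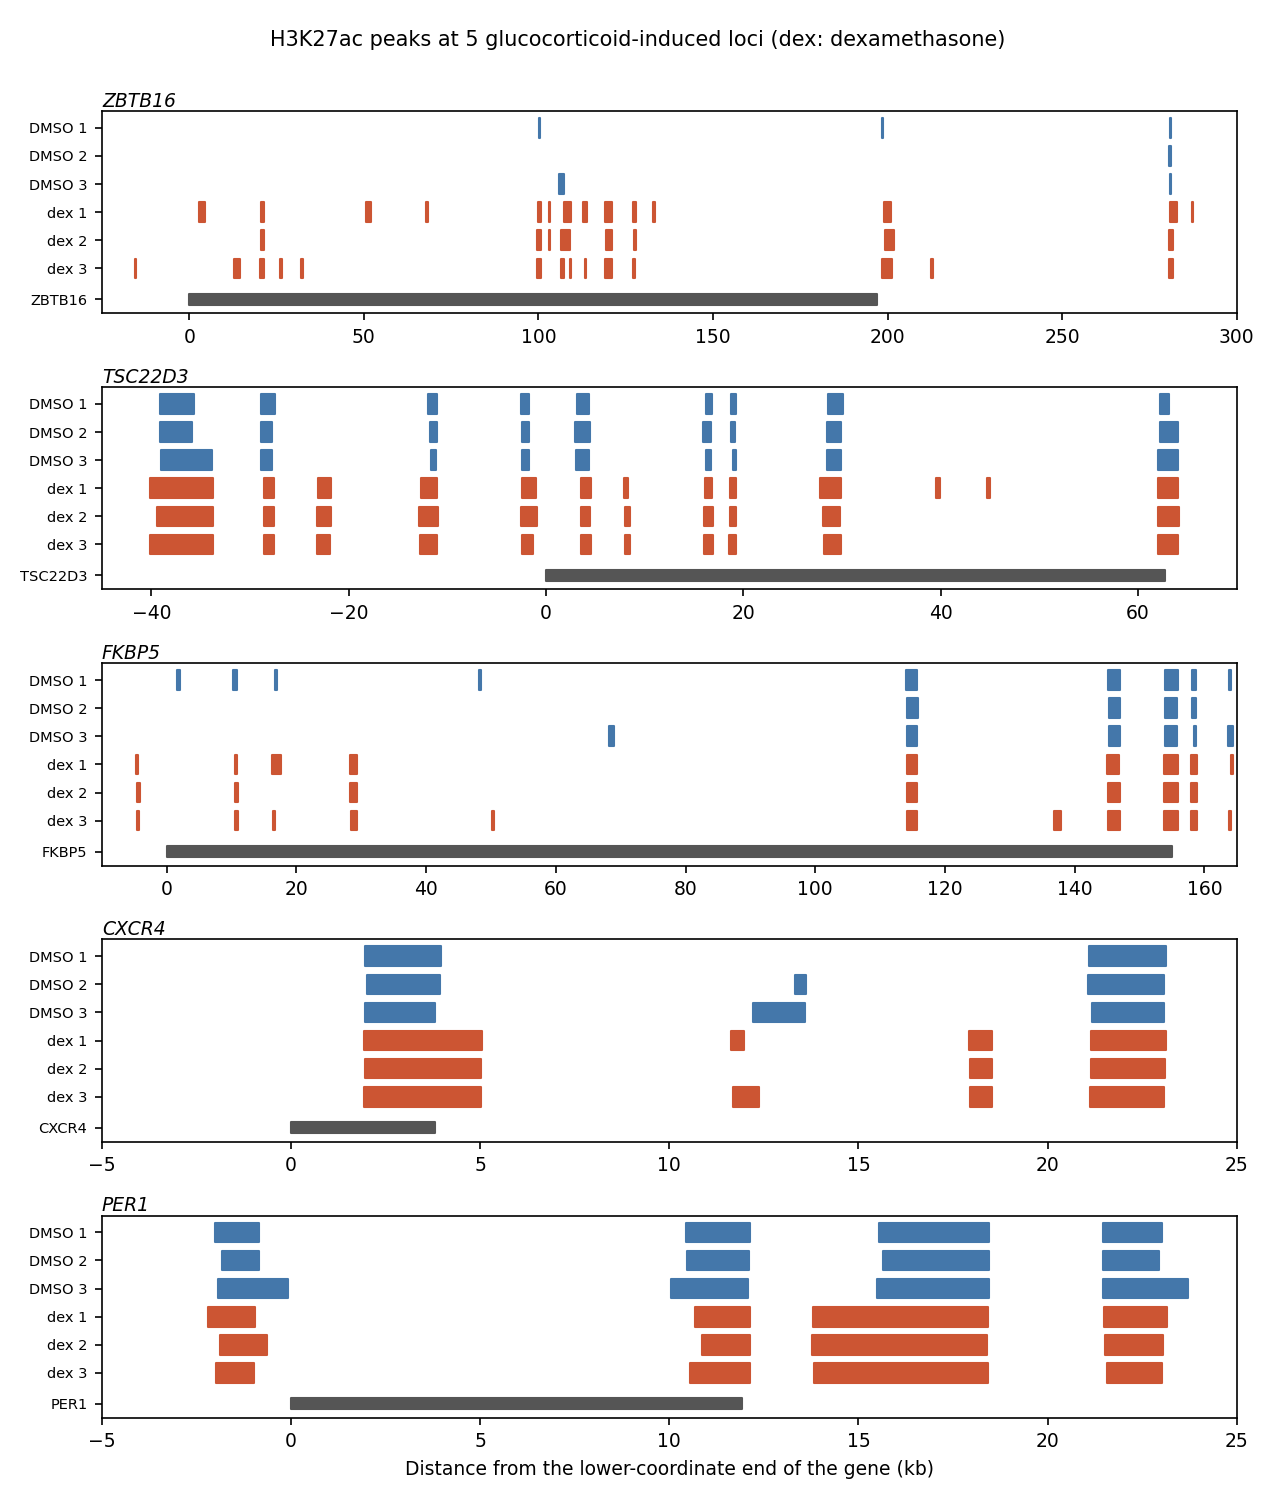
Peaks of the 6 libraries (rows) at ZBTB16, TSC22D3, FKBP5, CXCR4 and PER1, with the distance from the lower-coordinate end of each gene in kb (x axis). Blue bars are DMSO peaks, red bars dexamethasone peaks and the grey bar the gene. The dexamethasone rows hold peaks over the body of ZBTB16, on the left of TSC22D3 and inside FKBP5 that the DMSO rows lack, and longer peaks at the promoter of CXCR4 and upstream of PER1.

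Metabolic and stress genes of the list had differences above 0 that did not pass. PDK4, a kinase that slows the use of glucose, had 990, 923 and 930 bp with DMSO against 1799, 1618 and 1694 bp (0.74 ± 0.14, adjusted p = 0.337). SESN1, which encodes a sestrin that restrains the growth kinase mTORC1, had 3839, 3953 and 4704 bp against 6863, 4729 and 6947 bp (0.64 ± 0.19, adjusted p = 0.587). ANGPTL4, a secreted inhibitor of lipoprotein lipase, had 4842, 4299 and 4205 bp against 5974, 7382 and 5265 bp (0.56 ± 0.18, adjusted p = 0.610). Within these loci single regions were marked with dexamethasone only, with 0 bp in all DMSO libraries against 839, 694 and 857 bp inside SESN1, and against 988, 1004 and 1731 bp inside ANGPTL4. Of the 20 tested genes in a list of stress and catabolic regulators, which shares 9 members with the induced list, 14 had a log2 difference above 0 and 6 below, with a median of 0.21 and non-overlapping, higher groups at 6 (30.0%, against 7.57% of all genes). With the 50% of peaks of highest enrichment 8 of 19 were above 0, the median was -0.09 and 3 had non-overlapping, higher groups (15.8%, against 9.04%).

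Other well-known targets had differences at or below 0. DUSP1, a phosphatase that silences stress kinases, had a log2 difference of -0.17 ± 0.21 (adjusted p = 0.902) with overlapping groups. BCL6, a repressor of the germinal centre program, was the lowest of the list, with 2452, 1720 and 1222 bp against 635, 548 and 762 bp (-0.85 ± 0.22, adjusted p = 0.485). The groups of BCL6 did not overlap, and its sign turned with the 50% of peaks of highest enrichment (0.25).

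Over gene surroundings, 4 of 16577 genes were called higher (0.0241%) and 0 lower by limma, with 1123 (6.77%) at an unadjusted p under 0.05. Beside NNMT they were TNFSF8, the CD30 ligand of activated lymphocytes, and GCSAM and C3orf52, whose windows held the same peaks. TNFSF8 had 0 bp in each DMSO library and 2266, 2043 and 2308 bp with dexamethasone (log2 difference 2.47 ± 0.18, adjusted p = 0.0309). It entered the test through the dexamethasone libraries alone, and with any 1 of them left out it was not tested. Equal values of 0 bp do not measure the spread between DMSO libraries. GCSAM, which encodes a signalling adaptor of germinal centre B cells, had 349, 0 and 260 bp against 1812, 1735 and 2099 bp (2.06 ± 0.20, adjusted p = 0.0485). TRIM40 had 312, 0 and 0 bp against 3623, 1623 and 1905 bp and did not pass (adjusted p = 0.0541). The 4 called genes had at most 349 bp of mark in any DMSO library and 0 bp in at least 1 of them. Without DMSO library 3 there were 3 calls, and without any 1 of the other 5 libraries 0, with 892 to 1233 genes at an unadjusted p under 0.05. TNFSF8 was 1 of those 3 calls. NNMT, GCSAM and C3orf52 were called in 0 of the 6 runs.

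No gene passed in the lower direction. The smallest p-values were at AFF3, a lymphoid nuclear protein, with 1458, 1481 and 1327 bp against 271, 0 and 0 bp (-1.57 ± 0.20, adjusted p = 0.0990), and at XPR1, a phosphate exporter, with 5474, 3696 and 4241 bp against 1802, 1433 and 1461 bp (-1.13 ± 0.15, adjusted p = 0.125). HPCA, a calcium sensor best known from neurons, had 3611, 4481 and 3230 bp against 796, 889 and 392 bp (adjusted p = 0.127). CHST2, a sulfotransferase, had 1502, 1492 and 1099 bp against 0 bp in all dexamethasone libraries (adjusted p = 0.139). The groups were apart at each of these.

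At promoters, coverage rose at CXCR4, TTLL8 and KIAA2013 and fell at MYLIP and MAP2K2. Coverage within 1 kb of a start, or of both gene ends where no start was listed, was tested at 12004 genes: 3 were higher (0.025%) and 2 lower (0.0167%), with 550 (4.58%) at an unadjusted p under 0.05. Without DMSO library 1 the calls were 10 higher and 4 lower, without dexamethasone library 2 they were 1 and 3, and without any 1 of the others there were 0, with 506 to 535 promoters at an unadjusted p under 0.05. These were largely other promoters: TTLL8 was called in 2 of the 6 runs, CXCR4 and KIAA2013 in 1 each, and MYLIP and MAP2K2 in 0. The KIAA2013 promoter was covered over 1533, 1518 and 1463 bp with DMSO and over 2001 bp, the full window, in each dexamethasone library (0.32, adjusted p = 0.0200). MYLIP, a ligase that removes the LDL receptor, had 2001 bp in each DMSO library against 1429, 1482 and 1429 bp (-0.36, adjusted p = 0.0200). Coverage cannot exceed the full window, so equal values of 2001 bp do not measure the spread between libraries. On simulated data the promoter test made 30 false among 201 calls. MAP2K2, the kinase MEK2, had 2012, 1916 and 2034 bp against 1290, 1357 and 1374 bp (-0.44, adjusted p = 0.0425).

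TTLL8, a gene of the tubulin ligase-like family, had the largest promoter difference among the 5, with 494, 401 and 436 bp in the DMSO libraries and 1866, 1612 and 1843 bp in the dexamethasone libraries (1.29 ± 0.06, adjusted p = 0.0111). All 250 bases before its start, at chr22:50058299-50058548 on the minus strand, were covered in each dexamethasone library and in no DMSO library, so they are printed in capitals throughout.
TTLL8: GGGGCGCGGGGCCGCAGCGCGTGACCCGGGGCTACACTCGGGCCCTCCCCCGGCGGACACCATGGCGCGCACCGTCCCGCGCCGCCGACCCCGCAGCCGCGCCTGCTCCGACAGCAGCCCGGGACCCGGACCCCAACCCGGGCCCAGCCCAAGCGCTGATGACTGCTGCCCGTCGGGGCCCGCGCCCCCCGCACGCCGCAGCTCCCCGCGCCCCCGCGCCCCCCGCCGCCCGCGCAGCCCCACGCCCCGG
The 3 printed sequences are from RefSeq (GRCh38.p14). Each was searched on both strands for the half-site AGAACA, for the full glucocorticoid response element (that half-site, 3 bases of any kind and its reverse complement) and for a looser core (GNACA, 3 bases of any kind and its reverse complement), so a full element also counts as the other motifs. None of the 3 promoters held any of them. Among 22156 RefSeq promoter windows of 250 bases, the full element was in 0, the core in 0.253% and the half-site in 9.82%.

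Peaks that were present with one treatment only lay mostly away from promoters; shares by position were not tested against each other. Of bins of 500 bp present in at least 3 libraries, 1009 (0.995%) were gained, that is present in 3 of 3 dexamethasone and 0 of 3 DMSO libraries, and 1242 (1.23%) were lost. At promoters 0.322% of bins were gained and 0.339% lost, inside genes 1.23% and 1.74%, within 25 kb of a gene 1.36% and 1.37%, and farther away 1.34% and 1.45%. Of promoter regions, 91.4% had a peak in all 6 libraries, against 52.8% inside genes and 61.7% far from genes. Most changes were small, with 82.8% of gained and 85.3% of lost runs a single bin long and none above 5 bins. The peaks on gained runs lay below the middle of their lists, at a median of percentile 45.8, 37.1 and 38.2 of enrichment in the 3 dexamethasone lists, and the lost ones at 42.1, 34.2 and 38.1 in the 3 DMSO lists. Leaving out 1 library, which loosens the rule to 2 against 3, raised the counts to between 1558 and 2876 gained and between 1947 and 4785 lost, the highest counts being those without dexamethasone library 2 for gained and without DMSO library 2 for lost bins.

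**Figure D4:**
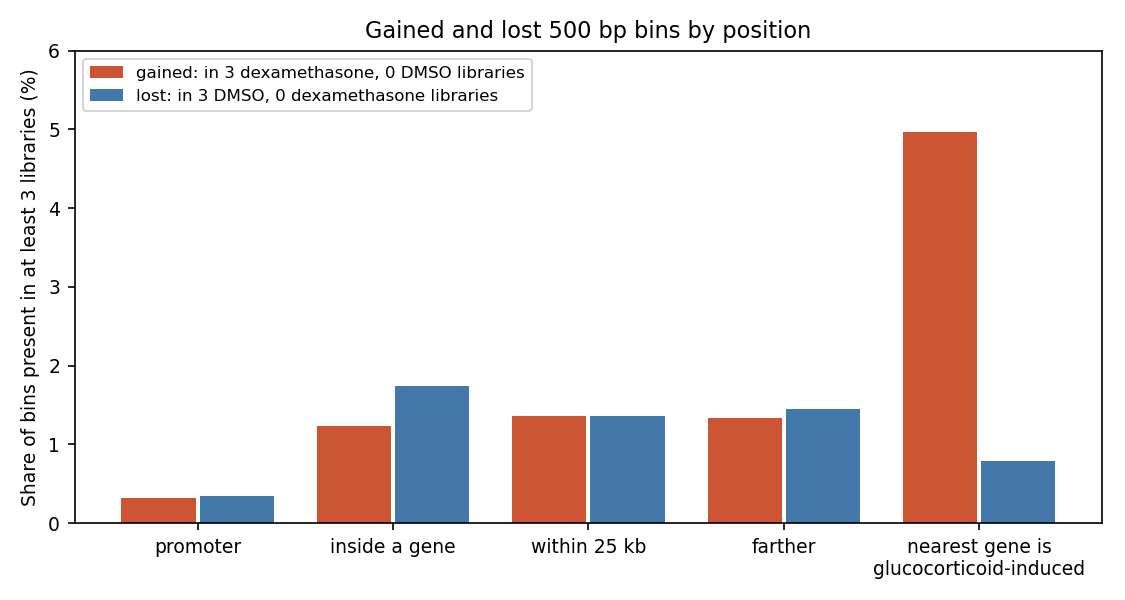
Percent of 500 bp bins present in at least 3 libraries (y axis) that were gained (red) or lost (blue) with dexamethasone, by position (promoter, inside a gene, within 25 kb of a gene, farther) and, in the last pair of bars, among bins nearest to the 50 glucocorticoid-induced genes. Promoter bins have 0.322% gained and 0.339% lost, and the bins assigned to induced genes have 4.97% gained and 0.785% lost. The members of that list were chosen with earlier results of these data known.

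Among bins whose nearest gene or start was a glucocorticoid-induced gene, at any distance, gained bins outnumbered lost ones. Of 764 such bins, 38 (4.97%) were gained and 6 (0.785%) lost, against 0.995% and 1.23% of all bins. The list's members were chosen with earlier results of these data known, so these shares are a description. The gained bins formed 24 runs assigned to 12 of the 50 genes, with 4 runs each for ZBTB16 and TSC22D3, 3 for CXCR4, and 2 each for FKBP5, PDK4, SESN1 and SMAP2, the last named after its values were seen. Of the 24 runs, 5 lay over 25 kb from any gene, the farthest 401583 bp from the start it was assigned to. The 3 lost runs were at BCL2L11, ELL2 and FOXO3, the last 2 named after their values were seen. Over the whole genome the longest gained runs, of 5 bins, were inside TMTC1 and RREB1 and at the promoter of ANKRD28, and the longest lost ones were inside KLHL25 and near AGPS.

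Inflammatory genes, which glucocorticoids are known to repress, had values in both directions, more of them below 0 than above. Of 30 tested NF-kB and inflammatory genes, 13 had a log2 difference above 0 and 17 below, none passed, and the median was -0.02. Of all genes, 56.2% were above 0. Normalised groups did not overlap at 5 with dexamethasone lower (16.7%, against 4.59% of all genes) and at 3 with it higher (10%, against 7.57%). By limma, 4 had an unadjusted p under 0.05 as lower and 1 as higher, against 3.63% and 3.14% of all genes. TNF and LTB, whose windows held the same peaks, are both among the 5. The TNF window, which also holds the neighbouring gene LTB, had 6283, 6937 and 6354 bp with DMSO and 4436, 3397 and 2624 bp with dexamethasone (-0.70 ± 0.18, adjusted p = 0.485). IL6, a growth factor of myeloma cells, had 1761, 1285 and 1480 bp against 796, 490 and 931 bp at its promoter region (-0.81 ± 0.18, adjusted p = 0.277). Both had non-overlapping, lower groups. REL, a subunit of NF-kB, had 1622, 1403 and 1393 bp with DMSO and 2369, 2219 and 2740 bp with dexamethasone (0.70 ± 0.16, adjusted p = 0.414), and a region 19164 bp away had 0 bp in all DMSO libraries against 745, 829 and 798 bp.

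Among plasma cell and myeloma genes, 19 of 31 tested had a log2 difference above 0, none passed, and the median was 0.03. IKZF1, the transcription factor degraded by lenalidomide-type drugs, had 16808, 14047 and 12741 bp with DMSO and 10960, 7340 and 8534 bp with dexamethasone (-0.58 ± 0.13, adjusted p = 0.412). KLF2, a factor of lymphocyte homing and quiescence, had 4544, 3624 and 4578 bp against 5417, 5408 and 6132 bp (0.51 ± 0.16, adjusted p = 0.610). Both had groups apart in covered length. The sign at IKZF1 turned with lists of equal covered length (0.08) and with the 50% of peaks of highest enrichment (0.19).

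The receptor and its coregulators showed no common direction, with 12 of 24 tested genes above 0 and 12 below and a median of 0.01. NR3C1 itself had 11675, 6406 and 7599 bp with DMSO and 7991, 5923 and 7771 bp with dexamethasone (-0.10 ± 0.19, adjusted p = 0.930), with overlapping groups. Inside the coactivator gene CREBBP, 1 region had 1198, 1319 and 1525 bp with DMSO and 0 bp in all dexamethasone libraries (adjusted p = 0.0941). Inside NCOA3, another coactivator, 1 region had 1122, 1086 and 1230 bp against 0 bp in all (adjusted p = 0.114). CEBPB, the transcription factor knocked out elsewhere in the series, had 5139, 5560 and 6139 bp with DMSO and 4631, 4625 and 4085 bp with dexamethasone over the gene (-0.17 ± 0.17, adjusted p = 0.887), and its promoter had -0.01. A region 156639 bp from CEBPB, its nearest gene, had 694, 738 and 646 bp against 1836, 1783 and 1638 bp (1.22 ± 0.12, adjusted p = 0.0618).

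The remaining lists had no calls over gene surroundings. Above 0 were 10 of 19 circadian clock genes, 13 of 16 BCL2 family genes, 17 of 26 genes of the unfolded protein response, 18 of 26 immediate early and AP-1 genes, 2 of 7 C/EBP genes, 15 of 27 cell cycle genes and 20 of 26 housekeeping genes. Beside the housekeeping share, 56.2% of all genes were above 0. With no normalization, 8 of the 26 housekeeping genes and 31.8% of all genes were. In that setting 6 of 16 BCL2 family, 12 of 26 immediate early and AP-1 and 10 of 26 unfolded protein response genes were above 0. So were 7 of 19 circadian clock, 2 of 7 C/EBP and 8 of 27 cell cycle genes. Of markers of other cells, 5 of 13 T cell, 7 of 13 myeloid, 7 of 15 mature B cell and 8 of 10 stromal and epithelial genes were above 0. The last group, PECAM1, VWF and EPCAM among them, had non-overlapping, higher groups at 5 of 10, against 7.57% of all genes, but at 1 of 10 with no normalization or equal covered length and at 1 of 9 with the 50% of peaks of highest enrichment. Its summed promoter coverage was 4.68 to 6.51 kb with DMSO and 5.34 to 5.72 kb with dexamethasone.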

How the data were processed

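Per the submitters' processing notes, Bowtie2 2.4.2, MACS3 3.0 and the hg38 build were used; a control library for the calls is not given in the sources used here. The deposited lists give each peak's start and end, recorded as other, and the authors' fold enrichment, a ratio. Peaks were called per library. The 213 to 296 peaks per library outside chromosomes 1 to 22 and X were left out.

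Covered base pairs were summed over merged regions, over 1 kb either side of starts, and from 25 kb before to 25 kb after 19974 protein-coding genes (RefSeq, GRCh38.p14). Starts came from the promoter table for 15812 genes and were both gene ends for the other 4162. Features covered in at least 3 of the 6 libraries were tested. A feature with 0 bp in all 3 libraries of 1 treatment therefore entered through the other treatment alone. Values were log2(bp + 500), or log2(bp + 200) for regions, quantile-normalised, and tested with limma 3.58.1 (trend and robust) in R 4.3.3, with Benjamini-Hochberg adjustment and a threshold of 0.05. Overlap of groups in the counts refers to these normalised values. A bin of 500 bp was present where at least 250 bp were covered. Python 3.11.15 with pandas 2.3.3, NumPy 2.4.6 and Matplotlib 3.10.9 was used.

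Up to 10 features per direction were named by size among those called with groups apart (of genes with windows overlapping by over 50%, 1), the 5 of smallest p where fewer than 5 passed, CEBPB and NR3C1 always, up to 3 per gene list and 8 of the glucocorticoid-induced list, the 10 longest gained and 5 longest lost runs. C3orf52, KIAA2013 as a region, DUSP1, PER1 as a gene and the promoter values of PER1 and FKBP5 fall outside this rule and were chosen after their values were seen, as were the regions given to fill in the ZBTB16, TSC22D3, SESN1 and NNMT loci. The members and the 16 lists were chosen with earlier results of these data known.

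On simulated data with 100 features changed per size, the gene test recovered 37% at log2 1 and 73% at log2 2 with 3 false among 113 calls. The region test recovered 26% and 48% with 1 false among 75, and the promoter test 80% and 91% with 30 false among 201, above its nominal rate. With nothing changed, each made 0 calls. Coverage and bins were exact in 50 of 50 simulated interval sets.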

Additional observations from a re-analysis of the deposited data

How the results depend on the processing

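The replicate numbers were taken not to pair the libraries: same-numbered deviations correlated at 0.057, 0.0945 and -0.021 over genes. With the replicate block, limma made 0 calls for genes, promoters and regions, with 1145, 504 and 2657 at an unadjusted p under 0.05.

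Counts of calls, 4 higher and 0 lower for genes, 3 and 2 for promoters and 12 and 3 for regions, depended on the settings. For genes the higher calls were 0 with a 100 bp offset (1122 at an unadjusted p under 0.05) or with coverage required in all 6 libraries (1014), 1 with a 5 kb window, no filter, no normalization or scaling to the library total, 2 with equal covered length, and 8 (with 1 lower) without trend and robust. A 100 kb window gave 5 higher and 1 lower, and the 50% of peaks of highest enrichment 0 higher and 12 lower. The 4 called genes had 0 bp in at least 1 library, so they could not enter the setting of coverage in all 6. For promoters the calls were 6 and 4 within 2 kb, 0 and 1 with equal covered length, 6 and 2 without trend and robust, 89 and 27 with scaling, and 2 and 27 with the most enriched peaks. An alternative chosen after seeing the data, only genes with a listed start, gave 3 and 2. For regions they were 47 and 19 with equal covered length, 285 and 178 without trend and robust, 31 and 35 with no normalization, 0 and 0 with scaling (3118 unadjusted), and 11 and 46 with the most enriched peaks. Leaving out 1 library gave 0 to 3 higher calls for genes, 0 to 10 higher and 0 to 4 lower for promoters, and 0 to 62 higher and 0 to 11 lower for regions. The cause of these shifts was not tested.

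No normalization moved the median log2 difference of all genes from 0.04 to -0.09, and scaling moved that of promoters from 0.0023 to 0.12.

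Gained and lost bins, 1009 and 1242, were 621 and 710 where all 500 bp had to be covered. Lost bins were 2010 where 1 bp counted and 777 with equal covered length, and gained bins 366 with the most enriched peaks. Leaving out 1 library gave 1558 to 2876 gained and 1947 to 4785 lost.

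Single signs turned as follows. With the most enriched peaks the gene values were 0.25 at BCL6, -1.77 at CXCR4, -0.54 at PER1, 0.015 at DUSP1 and 0.19 at IKZF1, the promoter value was -1.96 at CXCR4, and the region values were -0.81 at NOPCHAP1, -2.87 at CXCR4, -2.25 at ANKRD28, -0.82 at LY6E, 1.52 at TSC22D3, 2.71 at BCL2L11 and -0.33 at CEBPB. With equal covered length they were 0.081 at IKZF1, 0.61 at the SLC29A1 promoter, -0.91 at the region between PER1 and VAMP2 and 0.10 at the BCL2L11 region. A 5 kb window gave 0.14 at DUSP1 and 0.12 at CEBPB. The CEBPB promoter gave 0.0021 within 2 kb, 0.11 with scaling and -0.028 to 0.0046 with 1 library left out, above 0 without DMSO library 2. NR3C1 gave -0.25 to 0.090 with 1 library left out, above 0 without DMSO library 1. Its promoter gave 0.075 with scaling and -0.10 to 0.042, above 0 without dexamethasone library 2.

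Peak number, covered length, median width and the promoter share kept their direction under all sequences, 2 kb promoters and each left-out library. The share of length far from genes differed by -0.81 to 0.016 percentage points with 1 library left out, above 0 without DMSO library 1. Depth is unknown, and no detection limit was set.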
